A study of Mus musculus with 249 samples.

Results

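H19, Igf2, Kcnq1 and Cdkn1c lie in neighbouring imprinted domains near the distal end of mouse chromosome 7. The region was taken as every 40 kb window that the deposited table lists on chromosome 7 (assembly mm9) from the one starting at 149000001 to the one starting at 151560001. It holds 65 windows, of 3814 windows listed for chromosome 7 and 68162 listed in all. Each of the 65 windows was positive in at least 45 of the 249 libraries, so none was lost to the minimum of 25 libraries used for linkage.

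In an imprinted domain, the maternal and the paternal copy of a gene differ in activity. H19 is a non-coding RNA expressed from the maternal copy, and Igf2 encodes a growth factor expressed from the paternal copy. A control region between them, methylated on the paternal copy, binds the architectural protein CTCF on the maternal copy and there insulates Igf2 from shared enhancers. In the neighbouring domain, the antisense RNA Kcnq1ot1 starts inside Kcnq1 on the paternal copy and silences maternally expressed genes that include Cdkn1c, an inhibitor of the cell cycle, and Phlda2, a regulator of placental growth. Kcnq1 itself encodes a potassium channel subunit. The calls used here do not separate the parental copies.

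Genome architecture mapping (GAM) made these libraries. In this method DNA in thin slices through nuclei (nuclear profiles) is amplified and sequenced, and loci close in space are found in the same slice more often. The cells were 46C, a single mouse embryonic stem cell line of the 129/Ola strain with a fluorescent reporter at Sox1, and all groups share this line, growth in serum and LIF, a final day in serum-free medium and cryosections of 220 nm. Per the labels, 4 cell profiles were dissected into each tube. A profile can miss the nucleus, so a library holds fewer nuclear slices on average, and a positive window can come from any of several cells. All 249 libraries had passed the authors' quality control.

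The groups are titled by experiment and protocol. Library names carry a different prefix in each experiment, and the paper speaks of different collection batches. Between experiments, protocol and batch cannot be told apart. Reagent volumes were varied as protocol A in 10 libraries, protocol B in 11 and protocol C in 10. Proteinase K volumes were titled 1 µl (5 libraries) and 2 µl (6), although the protocol text gives other volumes. One freezing experiment held libraries frozen after incubation (10) and unfrozen ones (11), and the other held libraries frozen early (12) or late (11). The amplification experiment used 20 (4 libraries), 23 (5) and 25 (3) PCR cycles. The cresyl violet experiment held stained (16) and unstained (10) sections, and the kit experiment a large (11) and a small (12) kit. The remaining libraries were titled unstained in tests of propidium iodide (20), eosin (18) and SYBR Gold (10, where the protocol text describes staining), or belonged to the full collection (54). Libraries contained on average 18.2% ± 7.69 (SD, n = 249) of all windows, with a range from 3.40% to 45.2%. The labels do not say that libraries came from separate cultures, so every test below measures the spread between libraries, which may be technical. The table holds no read counts, and the depth behind a call is unknown.

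H19 spans chr7:149761434-149764048 on the minus strand of mm9 and lies in 1 window, chr7:149760001-149800000. That window also holds the sequence upstream of H19 where the imprinting control region lies. To show the sequence features of this window, it was searched on both strands for CGNGGNGGC, a core of the CTCF binding motif. There were 4 matches, 1 inside H19 and 3 upstream of its start at 2168, 2623 and 3893 bases. The sequences around these 3 matches are shown because they are the letters nearest to the control region, with the core in capitals, read on the minus strand of mm9.
chr7:149766205-149766234: gacgatgccgCGTGGTGGCagtacaatact
chr7:149766660-149766689: gatgctaccgCGCGGTGGCagcatactcct
chr7:149767930-149767959: ggagttgccgCGTGGTGGCagcaaaatcga
All 3 stretches also share 3 bases before the core and 2 bases after it. The core occurred in 49 of the 65 windows (75.4%), against 59.1% of 3535 windows of chromosome 7 of the same length. The core is rich in GC. Mean GC content was 48.1% in the region and 43.1% in 3260 other chromosome 7 windows positive in at least 25 libraries, a set other than the 3535. The part of GC content in the difference in matches was not tested. Of 32851 RefSeq promoters, which are only 300 bases long and not comparable with the windows, 9.86% held it. The mean was 1.66 matches in a window of the region and 1.45 in a window of chromosome 7. Most matches per window were found at Cdkn1c (8), and the window of the Igf2 start held 6. A match describes the letters only, and no binding was measured here.

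Kcnq1ot1 is not named in the GENCODE vM1 annotation used for mm9. Its promoter in RefSeq (build GRCm38.p6) matched mm9 exactly and once, at chr7:150482403-150482702 on the minus strand, inside the gene body of Kcnq1. It is shown because it places the antisense start in the window chr7:150480001-150520000, to which results below refer.
Kcnq1ot1 promoter: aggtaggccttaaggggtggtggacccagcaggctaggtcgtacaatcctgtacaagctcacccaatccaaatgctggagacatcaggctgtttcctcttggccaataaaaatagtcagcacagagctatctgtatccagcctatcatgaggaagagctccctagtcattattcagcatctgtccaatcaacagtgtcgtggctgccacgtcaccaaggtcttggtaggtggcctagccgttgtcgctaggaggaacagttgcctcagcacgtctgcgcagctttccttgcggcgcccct
This stretch of 300 bases held 9 CpG dinucleotides and no match to the core. RefSeq promoters were found for 6 of 10 genes looked up, and all 4 Igf2 promoters fell in the window chr7:149840001-149880000. H19, Ins2, Kcnq1 and Cdkn1c were placed by the gene annotation.

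The first question was how often each locus was captured. The window of H19 was positive in 47 of 249 libraries (18.9%, 95% exact interval 14.2% to 24.3%). The window of the Igf2 start was positive in 51 libraries (20.5%, 15.6% to 26.03%). The window of the Cdkn1c start, chr7:150640001-150680000, was positive in 62 libraries (24.9%, 19.7% to 30.8%). The window of the Kcnq1 start, chr7:150280001-150320000, was positive in 65 libraries (26.1%, 20.8% to 32.03%). The intervals treat libraries as the units and all overlap. In an exact test of the libraries positive for only 1 window of a pair, chosen after the counts were seen, none of 6 pairs passed after adjustment. The largest gap was between H19 and Kcnq1, with 21 libraries positive for H19 alone and 39 for Kcnq1 alone (exact p = 0.0273, adjusted p = 0.141).

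Along the region, the H19-Igf2 domain was captured less often than the Kcnq1 domain. The H19-Igf2 domain, from the H19 window to the last window of Ins2 (the insulin gene next to Igf2), holds 4 windows with 47, 49, 51 and 45 positive libraries in genomic order. The Kcnq1 domain, from Ascl2 (a transcription factor of the placental lineage) to Phlda2, holds 15 windows with a mean of 63.3 ± 5.75 (SD over windows) libraries. Counts ended at 51 in the 4 windows of the first domain and began at 55 in the 15 of the second. Blocks of this size elsewhere on chromosome 7 were not examined for such a gap, and no result is read from it. The 3260 other chromosome 7 windows positive in at least 25 libraries had a mean of 50.0 ± 9.17 (SD over windows). Per library, 25.4% of the Kcnq1 windows and 19.3% of the H19-Igf2 windows were positive. The difference was 6.13 ± 1.85 (SE) percentage points (sign-flip permutation test, two-sided, n = 249, p = 0.00107, a test chosen after the counts were seen). It was positive in 89 libraries, negative in 49 and 0 in 111. The difference was between 5.38 and 6.82 points when each experiment was left out. Both domains had a similar mean GC content, 47.8% and 47.9%, and against chromosome 7 windows within 1 percentage point of the GC content of each window the difference was 5.95 points. The 19 windows of the region before H19 had a mean of 51.3 libraries, the 5 between the domains 55.2 and the 22 after Phlda2 56.5. The counts of the H19-Igf2 domain were thus near those of the flank before it.

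Inside the Kcnq1 domain the counts ran from 55 to 70, with overlapping intervals and no test between windows. Ascl2 stood at 70 libraries, and the windows of Tspan32 and Cd81, which encode tetraspanins, ranged from 65 to 70. The Phlda2 window reached 70. The 9 windows of the Kcnq1 gene body, chr7:150293159-150612955, counted 65, 67, 59, 68, 63, 55, 56, 55 and 56 in genomic order. The window with the Kcnq1ot1 promoter was the first of 4 windows at the 3′ end of Kcnq1 with the lowest counts of the gene body. That window ties for the lowest count of the domain. The 4 counts of 55 and 56 lay near the means of chromosome 7 windows of like GC content, which were 53.2 to 56.8 libraries. The Kcnq1 window chr7:150400001-150440000, at 68 libraries, had the lowest GC content of the region (35.9%), where the chromosome 7 windows of like GC content averaged 44.2 libraries. In 113 libraries at least 1 Kcnq1 window was positive, in 14 of these all 9 were, and the median over the 113 was 5. The highest count of the region was 73, in the window of Nap1l4 and Cars just after Phlda2. The lowest was 45, in the window of Brsk2 and Mob2 before H19 and in that of Ins2.

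**Figure D1:**
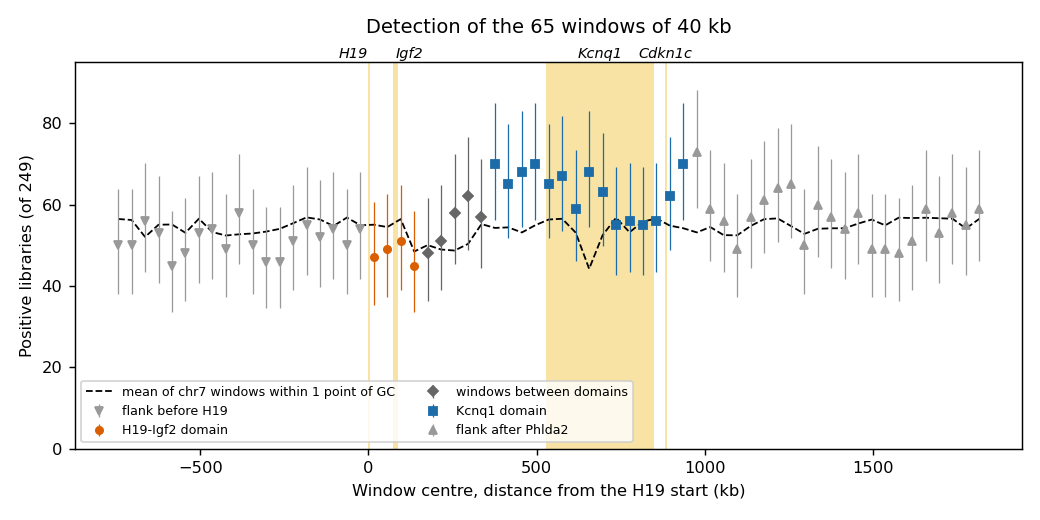
Number of libraries, of 249, in which each 40 kb window was positive (y axis, with 95% exact intervals) against the distance of its centre from the H19 start in kb (x axis, positive toward the end of the chromosome), with yellow bands for the 4 genes. The 4 orange windows of the H19-Igf2 domain lie at 45 to 51 libraries, below the dashed mean of chromosome 7 windows of like GC content, and 12 of the 15 blue windows of the Kcnq1 domain lie above it. Before H19, 3 of 19 windows lie above it, between the domains 4 of 5 and after Phlda2 14 of 22.

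Read by parental expression, 11 genes known as maternally expressed start in 10 windows. They are H19, Ascl2, Tspan32, Cd81, Tssc4, Kcnq1, Cdkn1c, Slc22a18, Phlda2, Osbpl5 and Nap1l4. Counted by gene, their start windows had 47 to 73 positive libraries with a median of 65. Parental expression was not measured in these cells. Of 4 names on the paternal list, Igf2, Ins2 and Kcnq1ot1 could be placed, with 45 to 55 libraries and a median of 51. Another list was drawn up as flanking genes outside the imprinted set, such as Ctsd, Lsp1 and Shank2, although some on it, such as Th and Dhcr7, have been reported as imprinted in placenta. The 11 of its 15 genes that could be placed had 50 to 65 libraries and a median of 54. The median over 3260 other windows of chromosome 7 positive in at least 25 libraries was 50. The lists follow position, since most maternally expressed genes lie in the Kcnq1 domain, and no test was made on them.

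Over the whole region, 22.5% of windows were positive per library, against 17.6% of the rest of chromosome 7, a difference of 4.86 ± 1.37 (SE) percentage points (two-sided sign-flip permutation test, p = 0.00039). The mean and the median part here: the difference was above 0 in 110 of 249 libraries, and its median was -1.26 points. The median library held 9 of the 65 windows. None was held by 70 of 249 libraries (28.1%), while 43 held at least 33 and 1 held all 65. The difference depended on what it was compared with. It was 2.38 points (p = 0.0836) against chromosome 7 windows positive in at least 25 libraries and 0.668 points (p = 0.620) against windows of the same GC content. Against all other autosomes it was 2.97 points (p = 0.0432), all by the same permutation test.

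The 11 experiments did not differ in this value beyond the spread between their libraries (permutation test of the F statistic, F = 0.389, p = 0.951), and experiment accounted for 1.61% of its variance. Experiment means ran from -0.186 points in the proteinase K experiment (SD 19.4, n = 11) to 10.4 points in the propidium iodide experiment (SD 22.6, n = 20). Of 11 contrasts between arms, none had an unadjusted p under 0.05, and the smallest adjusted p was 0.713 (permutation tests, exact where an arm had fewer than 10 libraries). The largest contrast was 19.6 points between 1 µl (10.5 ± 24.9, SD, n = 5) and 2 µl of proteinase K (-9.08 ± 6.97, n = 6), with an exact p of 0.102. Without the fifth 1 µl library it was 11.7 points. The next was 15.7 points between 20 and 23 PCR cycles (n = 4 and 5, exact p = 0.333), which was 2.24 points without the third library of 20 cycles. The SD within arms of 6.97 to 28.6 points limits what these contrasts can show.

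Single windows of the region were also compared between arms with Fisher's exact test over all windows. For early against late freezing, 3 of 65 windows had an unadjusted p under 0.05, beside 4.69% of 58830 windows in all. These were the windows of Brsk2, Ctsd and Shank2, each positive in 5 of 12 libraries frozen early and 0 of 11 frozen late (exact p = 0.0373, adjusted p = 0.803). Coverage of all windows was 28.01% ± 8.23 (SD, n = 12) in libraries frozen early and 16.8% ± 7.34 (n = 11) in those frozen late. With a Mantel-Haenszel test by tertile of library coverage the count was 0. For cresyl violet (65 windows tested, background 2.61%) and the kit (55 windows, background 3.25%), 0 windows of the region had an unadjusted p under 0.05 by either test, and over all windows 0 passed adjustment in any of the 3 comparisons. Among the members, H19, Igf2 and Cdkn1c were each positive in 0 of 11 libraries of the large kit, and in 3, 3 and 4 of 12 of the small kit. Kcnq1 was positive in 1 of 11 and 2 of 12. Coverage of all windows moved with the kit, at 14.6% ± 8.92 (SD, n = 11) for the large and 22.9% ± 4.50 (n = 12) for the small kit, and its part in these counts was not tested. Cdkn1c was positive in 5 of 12 early and 4 of 11 late frozen libraries, and in 3 of 16 stained and 4 of 10 unstained libraries of the cresyl violet experiment. In that experiment H19 was positive in 4 of 16 and 2 of 10, Igf2 in 4 and 4, and Kcnq1 in 6 and 4.

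The second question was whether these loci were captured together. Both H19 and the Igf2 start, 80 kb apart, were positive in 34 libraries, where independent windows of these frequencies would share 9.63. Of the libraries with H19, 72.3% held Igf2, and of those with Igf2, 66.7% held H19. By experiment, both were positive in 6 of the 8 cresyl violet libraries that held either. The same count was 5 of 7 for early and late freezing, 4 of 7 for eosin, 6 of 8 for freezing after incubation, 5 of 11 in the full collection, 2 of 4 for the kit, 5 of 9 for propidium iodide and 1 of 6 for reagent volumes. In the PCR, proteinase K and SYBR Gold experiments it was 0 of 1, 0 of 2 and 0 of 1. Joint capture was thus seen in 8 of 11 experiments, with 1 or 2 libraries holding either locus in the other 3.

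Linkage between windows was expressed as D′. This is the observed frequency of joint capture less that expected for independent windows, over the largest such excess their frequencies allow. It is 0 for independent windows and 1 at most. Errors on D′ are delete-1 jackknife standard errors over the 249 libraries. By Fisher's exact test with Benjamini-Hochberg adjustment over 3684104 pairs up to 2560 kb apart, 2066 of the 2080 pairs of the region passed (99.3%). The background was also high, with 94.5% of the pairs of all autosomes and 94% of those of chromosome 7 called, so most pairs passed anywhere. Among pairs under 200 kb apart it held for 250 of 250 pairs of the region, beside 100% on chromosome 7. From 200 kb to under 1000 kb it held for 1008 of 1010, beside 99.4%, and from 1000 kb on for 808 of 820 (98.5%), beside 90.5%. The region is short, so its pairs thin out toward 2560 kb, while those of chromosome 7 hardly do. These shares, and those over all distances, therefore cover unlike mixes of distance. At equal distance, D′ averaged 0.364 over the 2080 pairs of the region against 0.361 on chromosome 7, a difference of 0.004 ± 0.023. D′ between the windows of the region and windows of other autosomes averaged 0.0212 ± 0.125 (SD over pairs). Linkage was therefore read against chromosome 7 pairs of the same distance.

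H19 and Igf2 had a D′ of 0.652 ± 0.0789, against a mean of 0.550 ± 0.0869 (SD) over 3276 pairs of chromosome 7 at 80 kb. The difference of 0.10 ± 0.08 was within 2 standard errors. Kcnq1 and Cdkn1c, whose start windows lie 360 kb apart, shared 44 of the 83 libraries that held either, and 71.0% of the libraries with Cdkn1c also held Kcnq1. Their D′ of 0.607 ± 0.0726 lay 0.18 ± 0.07 above the mean of 0.424, higher than 97.7% of the 3219 pairs at that distance. This was the only pair among the 4 start windows that differed by more than 2 standard errors. Without the cresyl violet experiment the difference was 0.15 ± 0.10, and it was 0.15 to 0.24 with each experiment left out. As a log2 ratio of co-segregation to the product of frequencies it was 0.08 ± 0.13, within 2 standard errors. On chromosome 7 as a whole 2.71% of pairs were higher and 3.14% lower by more than 2 standard errors.

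The 4 start-window pairs that cross between the domains each differed from the mean of their distance by less than 2 standard errors. Igf2 and Kcnq1, 440 kb apart, shared 32 libraries and differed by 0.09 ± 0.09. Igf2 and Cdkn1c, 800 kb apart, shared 28 libraries and differed by 0.06 ± 0.09. H19 and Cdkn1c, 880 kb apart, shared 25 libraries, with a difference of 0.05 ± 0.09. H19 and Kcnq1, 520 kb apart, shared 26 libraries and differed by 0.01 ± 0.09, and this sign turned when some experiments were left out (-0.06 to 0.07). As log2 ratios all 4 differences were below 0, with -0.18 for H19 and Kcnq1 and -0.04 for Igf2 and Kcnq1. In the full collection alone, H19 and Igf2 with Cdkn1c were at -0.037 and -0.024. Independent windows would share 12.3 libraries for H19 and Kcnq1, 11.7 for H19 and Cdkn1c, 13.3 for Igf2 and Kcnq1 and 12.7 for Igf2 and Cdkn1c. Each D′ was positive and passed the Fisher test, as most pairs of chromosome 7 did.

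**Figure D2:**
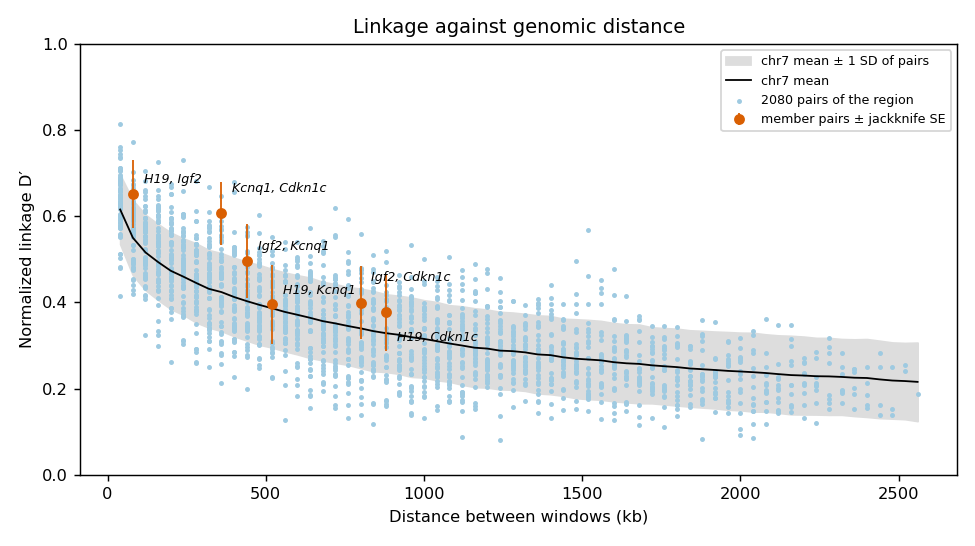
D′ of window pairs (y axis) against the distance between windows in kb (x axis). The black line and grey band give the mean and 1 SD of chromosome 7 pairs, small points the 2080 pairs of the region, and orange points the 6 pairs among the start windows of H19, Igf2, Kcnq1 and Cdkn1c with jackknife standard errors; Kcnq1 with Cdkn1c at 0.607 lies farthest above the line for its distance.

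The window of the Kcnq1ot1 promoter was positive in 55 libraries. It shared 34 of them with Cdkn1c, 160 kb away, and their D′ of 0.492 differed from the mean by -0.002 ± 0.08. With H19 it shared 22 libraries and with Igf2 23, at differences of -0.03 ± 0.09 and -0.07 ± 0.08. None of these 3 differences exceeded 2 standard errors. Over all its 64 pairs in the region this window averaged -0.039, and 2 of its pairs with windows after the domain are the 2 lowest of the region at 200 kb or more.

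The Phlda2 window, at the end of the Kcnq1 domain, had the highest mean linkage for its distances. It was chosen for description after its values were seen. It shared 50 of 85 libraries with the Kcnq1 start, 400 kb away, at a D′ of 0.679 ± 0.0685 and a difference of 0.27 ± 0.07 (0.12 ± 0.13 as a log2 ratio). It shared 51 of 81 libraries with the adjacent Cdkn1c window, with a difference of 0.14 ± 0.06. With the Igf2 start, 840 kb away in the other domain, it shared 33 of 88 libraries and differed by 0.18 ± 0.09. That last call was lost when any of 9 of the 11 experiments was left out, against pairs of all autosomes (0.17 ± 0.09), in libraries with 5 to 40% coverage (0.16 ± 0.09), in the full collection alone (0.09 ± 0.27) and as a log2 ratio (0.06 ± 0.15). The mean difference of the Phlda2 window over its 64 pairs in the region was 0.088, the highest of the 65 windows.

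Among all 2080 pairs of the region, 59 were higher (2.84%) and 40 lower (1.92%) than pairs of equal distance by over 2 standard errors, beside a background of 2.71% and 3.14%. The balance turned with the measure: there were 183 higher and 1 lower with plain co-segregation, and 13 higher and 159 lower with the log2 ratio. With plain co-segregation 3.86% of chromosome 7 pairs were higher and 8.80% lower, and with the log2 ratio 5.58% and 4.22%. Differences ranged from -0.25 to 0.30. At distances of 200 kb or more, the highest difference was between the window of Brsk2 and Mob2 and that of Phlda2, 1520 kb apart, with 31 shared libraries and a difference of 0.30 ± 0.09. The next 2 were between a window with no annotated gene, chr7:149960001-150000000, and the windows of Tspan32 and Cd81 (0.27 ± 0.08, 41 shared libraries) and of Phlda2 (0.27 ± 0.08, 37 shared libraries). The 3 lowest all joined the 3′ part of Kcnq1 with windows after the domain. The window of the Kcnq1ot1 promoter and that of Gm498, 560 kb apart, shared 16 libraries and differed by -0.25 ± 0.08. The same window and Shank2, a gene of synaptic scaffolds, shared 15 at 840 kb and differed by -0.22 ± 0.08. The next Kcnq1 window, chr7:150520001-150560000, and Shank2 shared 16 at 760 kb, also at -0.21 ± 0.08. These 6 pairs were taken as the ends of the range, so their size is a description. As log2 ratios, the 2 pairs of the window with no annotated gene were 0.13 ± 0.14 and 0.18 ± 0.14, within 2 standard errors. So were both Shank2 pairs with plain co-segregation (-0.028 ± 0.015 and -0.026 ± 0.015). In the full collection alone all but the pair with Tspan32 and Cd81 were within 2 standard errors or turned.

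**Figure D3:**
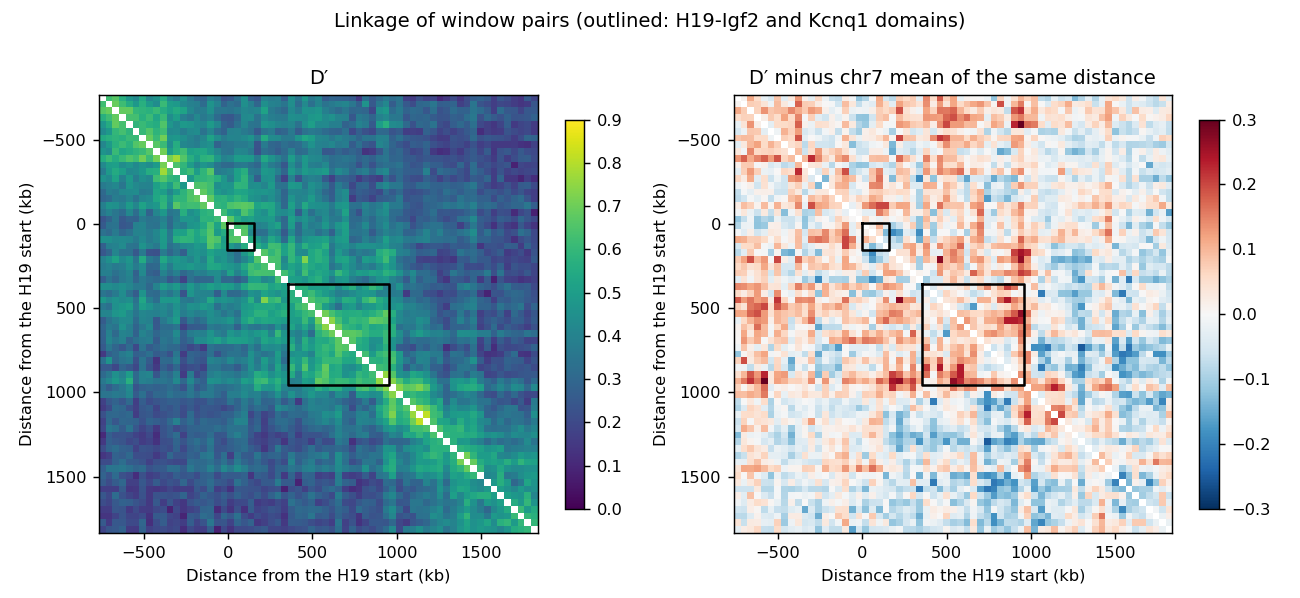
D′ of all pairs of the 65 windows (left) and its difference from the chromosome 7 mean of the same distance (right), with both axes giving the distance from the H19 start in kb and the H19-Igf2 and Kcnq1 domains outlined. On the right, pairs of the Kcnq1 domain with the flank after it are mostly blue (90 of 330 above the mean), and the Phlda2 window at the end of the domain has the highest average (0.088).

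Blocks of pairs were then averaged, with the libraries as the source of error and 95% intervals from the jackknife standard error. The 105 pairs within the Kcnq1 domain averaged a D′ of 0.551, which was 0.061 ± 0.032 above pairs of equal distance (interval -0.001 to 0.124). Of these, 83 were above the mean, and 12 (11.4%) were higher and 1 lower by over 2 standard errors, beside 2.71% and 3.14% on chromosome 7. The interval included 0, but no longer did when any of 5 experiments (early freezing, eosin, freezing after incubation, SYBR Gold or PCR cycles) was left out, at 0.064 to 0.072. The reading depended on the setting. The interval also left out 0 with plain co-segregation (0.048), a minimum of 10 libraries (0.063) and 5 to 40% coverage (0.073), and still included 0 in 3 other alternatives. Measured instead as the log2 ratio of co-segregation to the product of frequencies, the difference was -0.16 ± 0.09, with the opposite sign. The 36 pairs within the Kcnq1 gene body averaged 0.063 ± 0.036. Of 3061 overlapping blocks of the same size on chromosome 7, 94.4% had a lower average than the Kcnq1 domain, given as a description.

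The 6 pairs within the H19-Igf2 domain were at -0.011 ± 0.051 (interval -0.110 to 0.088), and 3 of them lay above the mean. None differed by over 2 standard errors. The 60 pairs between the domains were at 0.044 ± 0.043 (interval -0.040 to 0.127), of which 42 lay above the mean and 1 was higher by over 2 standard errors. Of 2969 equal blocks on chromosome 7, 82.4% were lower. Linkage within the Kcnq1 domain exceeded that between the domains by 0.018 ± 0.041 (interval -0.064 to 0.099), and it exceeded that within the H19-Igf2 domain by 0.072 ± 0.063 (interval -0.051 to 0.196). Both intervals include 0, so neither difference was detectable in D′ with 249 libraries. With plain co-segregation in place of D′ the differences were 0.034 ± 0.012 and 0.054 ± 0.019 and their intervals left out 0, and with the log2 ratio they were -0.077 and -0.214. The 20 pairs of the H19-Igf2 domain with the 5 windows before Ascl2, which hold Th (tyrosine hydroxylase), were at -0.047 ± 0.046, and those of these 5 windows with the Kcnq1 domain were at 0.062 ± 0.035.

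Relative to pairs of equal distance, the Kcnq1 domain had less linkage to the windows after it than to the H19-Igf2 domain, though this depended on the libraries and the measure. Its 330 pairs with the flank after Phlda2, which runs from Cars to Shank2, were at -0.045 ± 0.034, and 24 of them (7.27%) were lower and 1 higher by over 2 standard errors. Only 90 of the 330 lay above the mean. This block was at 0.017 with plain co-segregation, with the opposite sign, and at -0.28 with the log2 ratio. Compared with the block between the domains the difference was -0.088 ± 0.043 (interval -0.172 to -0.004), the only one of 8 block differences computed whose interval left out 0, with no adjustment over the 8. The interval included 0 without the cresyl violet (-0.082), early freezing (-0.083), full collection (-0.050), PCR cycle (-0.078) or reagent volume (-0.087) experiment. With plain co-segregation in place of D′ the difference was 0.004 ± 0.011. The contrast was not particular to these domains. The 285 pairs of the flank before H19 with the Kcnq1 domain were at 0.044 ± 0.036. The block between the domains minus that block was -0.0003 ± 0.032. The 110 pairs of the windows between the domains with the flank after Phlda2 were at -0.045 ± 0.036, with 22 above the mean.

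**Figure D4:**
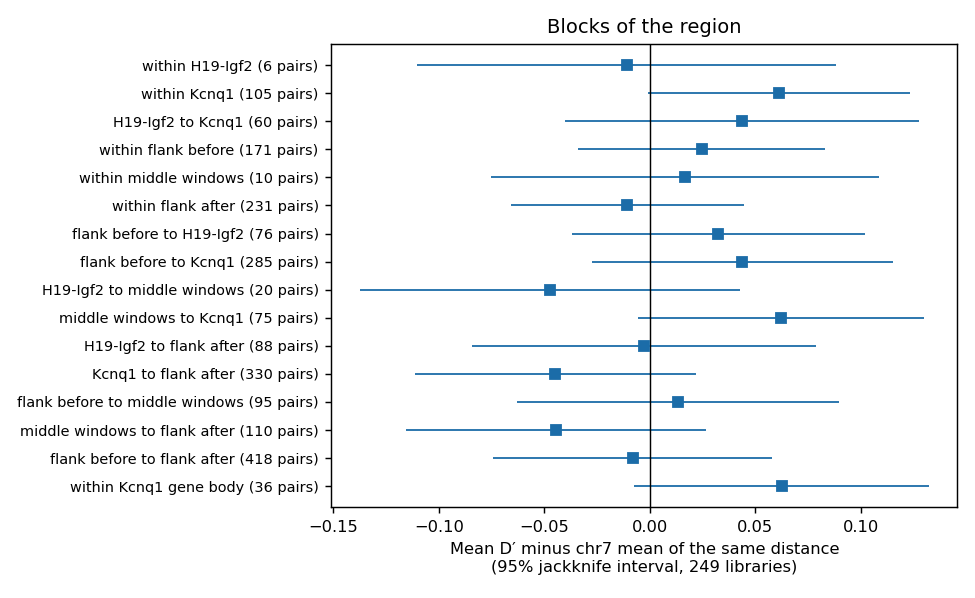
Mean difference of D′ from chromosome 7 pairs of the same distance for 16 blocks of the region (x axis), with 95% jackknife intervals over 249 libraries; the middle windows are the 5 between the domains. The bar of each block reaches 0, and the blocks within the Kcnq1 domain (0.061) and from the middle windows to it (0.062) lie highest among the whole domains and flanks.

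Insulation at a window boundary was scored as D′ averaged over all pairs that span it within 400 kb on either side, so that low scores mark boundaries with less linkage across them. Of 141 local minima on chromosome 7 that stood out by 0.5 SD or more, the region held 3. That is 4.55% of its 66 boundaries, beside 4.35% of the 3242 scored on the chromosome. One lay at 149.44 Mb among keratin-associated protein genes (score 0.421 ± 0.0387, SE, equal to the chromosome 7 mean), and one at 149.88 Mb within the annotated Ins2 (0.426 ± 0.0365). The deepest lay at 150.76 Mb within Cars, just after Phlda2 (0.381 ± 0.0361), at -0.972 SD from the chromosome 7 mean of 0.421. Over 15 alternatives, a minimum within 40 kb remained in 11 for each of the first 2 and in 6 for the third. The score was nearly flat from 150.72 to 151.00 Mb, at 0.381 to 0.390, and in most other settings the minimum moved to 150.96 or 151.16 Mb.

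**Figure D5:**
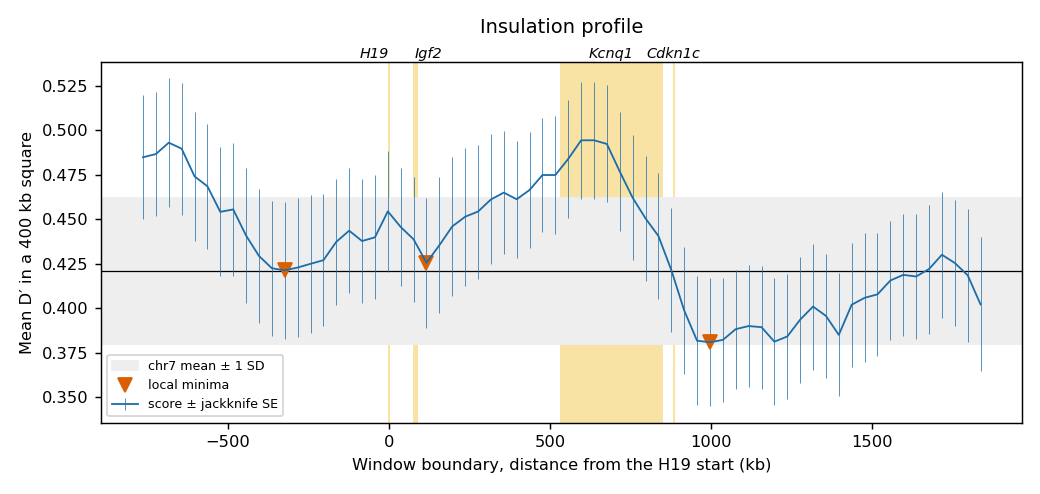
Insulation score from squares of 400 kb (mean D′ on the y axis, with jackknife standard errors) at each window boundary against its distance from the H19 start in kb (x axis), with the mean and 1 SD of chromosome 7 in grey and local minima as triangles. The score peaks within Kcnq1 and falls to 0.381 at the minimum in Cars after Cdkn1c.

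The loci were last read together. A window of H19 or Igf2 was positive in 72 libraries, a Kcnq1 window in 113 and the Cdkn1c window in 62. All 3 were positive in 36 libraries, where the single frequencies give 8.14 and frequencies within quintiles of library coverage give 10.3. The ratios were 4.42 and 3.51. Of the 62 libraries with Cdkn1c, 61 held a Kcnq1 window. H19 or Igf2 was seen without Kcnq1 and Cdkn1c in 13 libraries, and Kcnq1 alone in 29. In 25 libraries Kcnq1 and Cdkn1c were positive without H19 or Igf2, in 23 H19 or Igf2 and Kcnq1 were positive without Cdkn1c, and 122 libraries held none. No library held H19 or Igf2 with Cdkn1c and no Kcnq1 window. These counts have no test, and since Kcnq1 lies between the other loci, they hold the linkage of neighbouring windows.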

How the data were processed

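The members and lists were chosen, and the tests planned, with earlier results of these data known. Per the authors' methods, reads were aligned to mm9 with Bowtie2 (version 2.1 in the submitters' processing notes), duplicates were removed with Samtools, and GAMtools called a 40 kb window positive at 4 reads. The deposited table holds 0 or 1 per window and library, for libraries that passed quality control. All 249 columns matched the labels and 0 were left over. Depth is unknown. The mm9 length of chromosome 7 (152524553 bases) equals the end of its last window in the table.

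Genes came from GENCODE vM1 and promoters from RefSeq. Percentages per library were compared with sign-flip and label permutation tests (100000 resamples, or exact), and windows and pairs with Fisher's exact test and Benjamini-Hochberg adjustment over all windows or pairs. D′ was computed for windows positive in at least 25 libraries, and a pair was called different from equal distance beyond 2 jackknife standard errors. Minimums of 40 and 10 libraries, other measures of linkage, coverage limits, stratified tests and leaving out each experiment were tried. Named were the members, genes by position, and extreme windows and pairs. Scripts ran in Python 3.11.15 with NumPy 2.4.6 and SciPy 1.17.1, and the tests were tested on simulated data.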

Additional observations from a re-analysis of the deposited data

Results flagged for a closer look

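In 1 of 9 groups of 4 to 10 libraries, the library farthest from the others stood apart. In protocol A of the reagent volume experiment, 1 library had 63.1% of the region positive against 25.7% of the rest of chromosome 7, a difference of 37.4 percentage points, while the other libraries of that group lay between -25.5 and 2.13 points. It held 41 of the 65 windows. For normally distributed values, chance alone marks about 1 in 20 such groups. The rate for these values, whose mean and median part, was not tested, and 9 groups were examined.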

How the results depend on the processing

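Of 595 values under alternatives, 497 kept their direction and side of the threshold (counts: stayed within 1.5 times), 36 reversed, 33 lost and 17 gained the threshold and 12 moved; the cause was not tested. Detection of the region above chromosome 7 was 2.38, 0.668 and 0.997 points against kept windows, the same GC content and the distal end of the chromosome, and kept the call at 2.97 against all other autosomes. Windows with p under 0.05 for early freezing went from 3 to 0. Higher and lower pairs numbered 183 and 1 with plain co-segregation, 13 and 159 with the log2 ratio, and 89 and 18 in the full collection alone, where 3.28% and 2.28% of chromosome 7 pairs were called (41 to 79 and 22 to 70 without each experiment, beside 2.49% to 2.71% and 2.65% to 3.11% of chromosome 7 pairs).

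With plain co-segregation, linkage within the Kcnq1 domain was 0.0480 and to the flank after it 0.0174. Differences of the Kcnq1 domain from the block between domains, the H19-Igf2 domain, the flank after and the flank before were 0.0342, 0.0535, 0.0323 and 0.0393, each past the threshold; H19-Igf2 minus between was -0.0194, and Kcnq1 to the flank after minus between 0.00361. With the log2 ratio, the blocks within H19-Igf2, within Kcnq1, between domains and Kcnq1 to the flank after were 0.0502, -0.164, -0.0865 and -0.284. The same 4 differences were -0.0770, -0.214, -0.00289 and -0.202, H19-Igf2 minus between was 0.137, and between minus H19-Igf2 to the flank after -0.0373; H19 with Kcnq1 and Cdkn1c gave -0.178 and -0.0288, Igf2 with Kcnq1 and Cdkn1c -0.0396 and -0.0114. In the full collection alone, Kcnq1 minus between was -0.0448, H19-Igf2 minus between -0.236, between minus flank before to Kcnq1 0.0912, H19 and Igf2 with Cdkn1c -0.0371 and -0.0238, and the Kcnq1 and Shank2 pair at 840 kb 0.225. Within Kcnq1 was 0.0630 with a minimum of 10 libraries and 0.0729 with 5 to 40% coverage, where Kcnq1 minus the flank after was 0.0858; between minus flank before to Kcnq1 was 0.000329 and 0.00406. Insulation minima numbered 8 and 1 with squares of 200 and 800 kb.

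Without each experiment, within H19-Igf2 ranged from -0.0460 to 0.0259, within Kcnq1 from 0.0470 to 0.0722, H19-Igf2 minus between from -0.104 to 0.00680, Kcnq1 minus the flank after from 0.0578 to 0.0997, between minus flank before to Kcnq1 from -0.0258 to 0.0214, Kcnq1 to the flank after minus between from -0.108 to -0.0502, and H19 with Kcnq1 from -0.0559 to 0.0684. Without each library, 20 minus 25 PCR cycles ranged from -5.15 to 15.9 points. No paired analysis was possible because well positions and replicate numbers pair no libraries between arms. Depth is unknown, and the standard errors of D′ limit single pairs.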
